A study of Mus musculus with 16 samples.

Results

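The genes described here are 4 glutathione peroxidases (Gpx1, Gpx2, Gpx3 and Gpx4) and 6 genes known as targets of the transcription factor NRF2 (Nqo1, Gclc, Gclm, Txnrd1, Hmox1 and Srxn1). These 10 of 22396 gene symbols were taken by name from both deposited tables, and each of the 10 averaged 1 TPM, a transcript abundance corrected for length and depth, or more in both treatments. Glutathione peroxidases use glutathione to reduce hydrogen peroxide and lipid peroxides, and some of them carry the amino acid selenocysteine at the active site. NRF2, encoded by Nfe2l2, is held at a low level by KEAP1, and when oxidants or electrophiles reach KEAP1 it enters the nucleus and, with a small MAF protein, binds antioxidant response elements near genes of glutathione synthesis, quinone reduction and the thioredoxin system. In the colon these enzymes act in an epithelium that faces bacteria and, during inflammation, oxidants from leukocytes.

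RNA was from EpCAM+ cells sorted from digested distal colonic mucosa of 16 mice, with 1 library per mouse. Control mice carried floxed Tnfr2 alleles (Tnfr2-f/f), and mice labelled knockout carried Vil1::Cre in addition, which drives Cre recombinase in intestinal epithelium, so that all 16 mice carried the floxed alleles. There were 3 control and 4 labelled-knockout mice given 3% dextran sulfate sodium (DSS), an agent that injures the colonic epithelium, for 6 days, and 4 control and 5 labelled-knockout mice given water. The labels place dissection 12 days after the start of treatment and give no age; the methods of the study give another DSS percentage and another day for the uninjured mice, and the label values are used here. All DSS-treated mice were female, 2 of them from cage c and 5 from cage d. Of the water-treated mice, 4 males shared cage a and 5 females shared cage b. No cage held both treatments, so treatment and cage cannot be told apart. The paper places the sorted cells of DSS-treated mice in injured regions, which were separated from unaffected colon. Treatment and this choice of tissue cannot be told apart either. The tables of the treatments were normalized separately. Levels are therefore compared between treatments without a test, after 1 median-of-ratios rescaling of all 16 mice ("rescaled TPM") and as the percentile rank of a gene among 11247 genes within each mouse.

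Tnfrsf1b, the targeted gene, did not differ between the labels past the spread of the mice: in the libraries labelled knockout the group means were 18.4 TPM against 16.5 TPM in controls after DSS, and 11.8 TPM against 13.9 TPM in the water-treated mice (exact permutation test, two-sided, p = 0.686 and p = 0.175). The paper reports reduced TNFR2 protein in EpCAM+ cells of mice of this genotype by flow cytometry, with similar results by RT-qPCR. The floxed part of the gene is exon 2, and whether TPM of the whole transcript would show its loss was not tested. Summed rescaled TPM of 8 epithelial markers, Epcam among them, were 5236 to 7244 in the water-treated and 4091 to 6390 in the DSS-treated mice. In labelled-knockout mice 4 of the 8 were lower in every DSS-treated than in every water-treated mouse, beside 18.1% of all genes, and 2 were higher, beside 17.4%. In controls all 8 overlapped between the treatments. Markers of other cells were also present and differed with treatment as well. The sum of 9 macrophage markers was 1283 to 2860 in the 9 water-treated mice and 16.01 to 50.8 in the 7 DSS-treated mice. All 9 were lower in every DSS-treated control than in every water-treated control, beside 14.2% of all genes. The sum of 7 B cell and plasma cell markers was 528 to 15630 against 7.29 to 389, and that of 7 stromal markers was 245 to 844 against 95.8 to 443. The sum of 5 neutrophil markers ran the other way, from 10.9 to 32.2 in water-treated mice to between 40.1 and 1673 after DSS, with DSS control mouse 1 highest. Goblet cell markers summed to 4000 to 6832 in water-treated mice and to 968 to 1876 in 6 of 7 DSS-treated mice, while DSS control mouse 3 had 6013. In such bulk libraries fewer cells of a type and less RNA per cell cannot be told apart, and the part of these cells in the results below was not tested except where values are given.

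The active site links the peroxidases with Txnrd1, the cytosolic thioredoxin reductase. Selenocysteine is encoded by TGA, read as an amino acid instead of a stop. Among the coding sequences of the listed transcripts (GENCODE M21, GRCm38), 5 of 10 genes had an in-frame TGA before the stop codon: all 4 peroxidases and Txnrd1. The other 5 genes had none. The codon and its surroundings are shown because they are what these 5 messages share, with TGA in capitals and the coding strand read 5′ to 3′:
Gpx1, codon 47, exon 1, chr9:108339439-108339465, + strand: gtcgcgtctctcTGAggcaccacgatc
Gpx2, codon 40, exon 1, chr12:76795244-76795270, - strand: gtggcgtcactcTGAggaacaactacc
Gpx3, codon 73, exon 2, chr11:54907244-54907270, + strand: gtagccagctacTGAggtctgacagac
Gpx4, codon 73, exon 3, chr10:80054725-80054751, + strand: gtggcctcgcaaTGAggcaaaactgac
Txnrd1, codon 498, exon 14, chr10:82896025-82896045, + strand: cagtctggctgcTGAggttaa
In the peroxidases the codon stands in the early part of the coding sequence, at codon 47 of 201 in Gpx1 and at codon 40 of 190 in Gpx2. In Txnrd1 it is codon 498 of 499, next to the last codon before the stop.

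Gpx1 (chr9:108338903-108340343, + strand, gene positions from GENCODE M21 on GRCm38), the widespread cytosolic peroxidase, was the most abundant of the 10 genes by mean rescaled TPM in 3 of 4 groups, and second to Txnrd1 in DSS-treated controls. Its rescaled TPM ran from 63.0 to 111 over the 9 water-treated mice and from 62.8 to 100.3 over the 7 DSS-treated mice. The treatments overlapped. The direction depended on the scaling, since the log2 difference between DSS-treated and water-treated controls was -0.26 (SE 0.18, 3 against 4 mice) after rescaling and 0.09 as deposited.

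Gpx2 (chr12:76792333-76795554, - strand), the peroxidase typical of gastrointestinal epithelium, spread widely between uninjured mice. Its rescaled TPM were 44.2, 13.2, 7.5 and 26.1 in the water-treated controls and 73.4, 49.99, 52.5, 15.9 and 27.3 in the water-treated labelled-knockout mice. After DSS they were 41.2, 52.9 and 52.9 in controls and 88.4, 67.2, 104 and 66.1 in labelled-knockout mice. The means were 2.15-fold higher after DSS in controls and 1.86-fold higher in labelled-knockout mice, and in each genotype the highest water-treated mouse, replicate 1 in both, reached into the DSS-treated range. As deposited, Gpx2 was higher after DSS without overlap in both genotypes. The log2 difference was 1.34 (SE 0.54) in controls and 1.03 (SE 0.41) in labelled-knockout mice.

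Gpx3 (chr11:54902453-54910377, + strand), the secreted peroxidase found in plasma, was lower in every DSS-treated than in every water-treated control, while in labelled-knockout mice the treatments overlapped. Rescaled TPM were 21.7, 24.0, 29.1 and 31.1 in water-treated controls and 19.4, 9.58 and 7.05 in DSS-treated controls, a 2.20-fold difference of the means without overlap. As deposited, the highest DSS-treated control (22.4 TPM) reached into the water-treated range (from 20.2 TPM). In labelled-knockout mice they were 18.4, 14.0, 15.02, 32.2 and 18.7 with water and 8.70, 31.6, 34.9 and 7.47 after DSS. The DSS-treated labelled-knockout mice thus split widely around the water-treated ones, and whether the genotypes differed in this was not tested. The 3 DSS-treated mice with 19.4, 31.6 and 34.9 (control 1, labelled knockout 2 and 3) were also those with summed stromal markers of 358, 380 and 443 rescaled TPM, against 95.8 to 152 in the other 4. The summed stromal markers of every DSS-treated control were below those of every water-treated control, at 102 to 358 against 490 to 844. Taken singly, 4 of the 7 stromal markers were lower without overlap in controls, beside 14.2% of all genes. In labelled-knockout mice 0 of the 7 were, beside 18.1%. Without DSS control mouse 1, the log2 difference of Gpx3 in controls went from -1.18 to -1.56.

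Gpx4 (chr10:80047166-80056439, + strand), which reduces lipid hydroperoxides in membranes, was lower after DSS, and in labelled-knockout mice the groups did not overlap. Its rescaled TPM were 62.4, 75.9, 64.9, 111 and 58.8 with water and 45.4, 32.6, 30.5 and 34.7 after DSS in labelled-knockout mice, a 2.08-fold difference. As deposited, these groups overlapped by a narrow margin, at 35.9 to 54.1 TPM after DSS and 53.9 to 101 TPM with water. In controls they were 75.2, 66.3, 81.6 and 55.2 with water and 44.5, 33.2 and 59.6 after DSS. Here DSS control mouse 3, the mouse of cage c with many goblet cell transcripts, lay inside the water-treated range, and without it the groups did not overlap. Processed pseudogenes Gpx2-ps1 and Gpx4-ps2 are annotated, and how reads shared with them were divided was not tested.

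**Figure D1:**
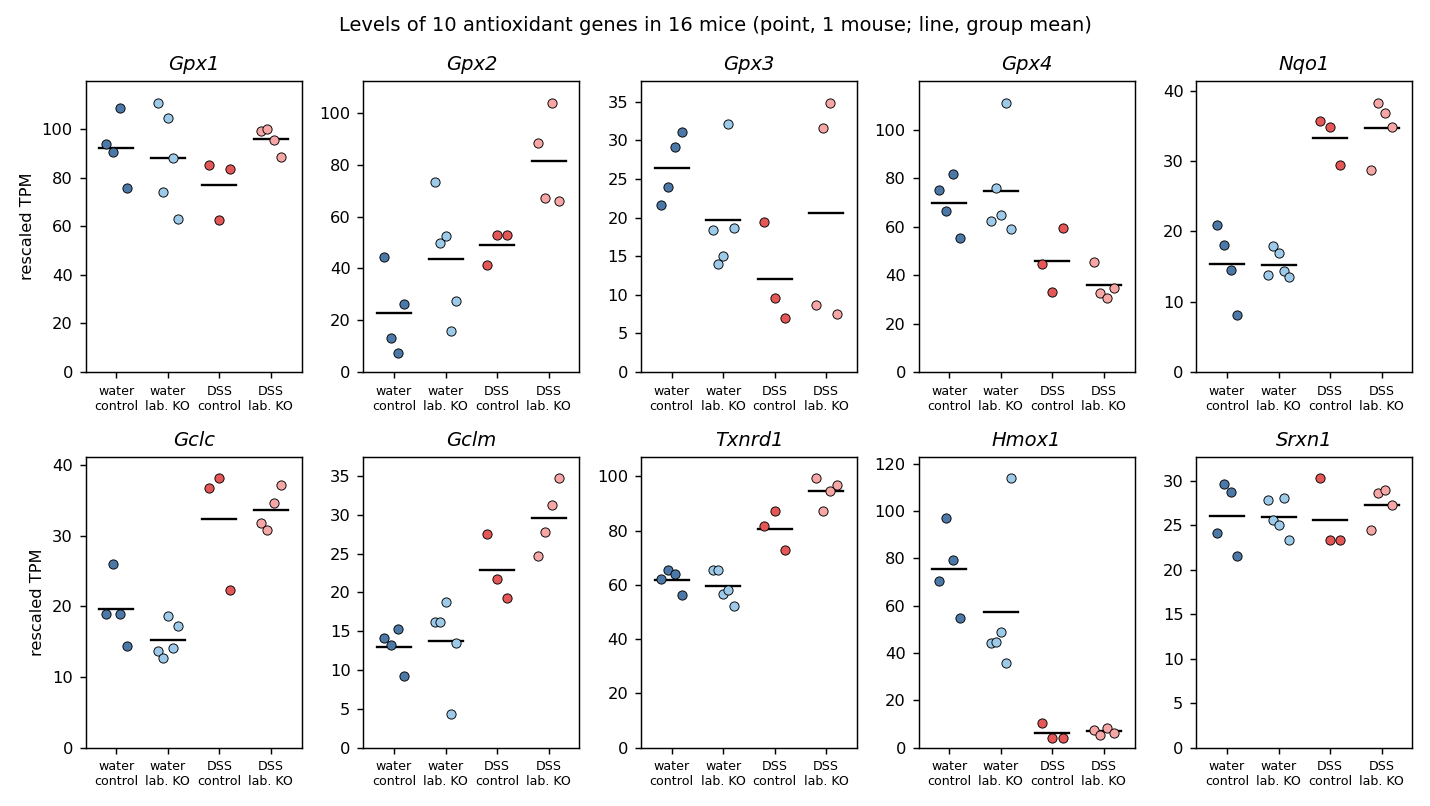
Rescaled TPM of the 10 genes in each of 16 mice (linear axes from 0, 1 panel per gene; point, 1 mouse; line, group mean; lab. KO, labelled knockout). Nqo1 lies between 8.05 and 20.96 with water and between 28.8 and 38.3 after DSS, and Hmox1 lies between 35.7 and 114 with water and between 4.15 and 10.6 after DSS.

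The NRF2 targets differed in direction. The enzyme that begins glutathione synthesis, glutamate-cysteine ligase, is made of a catalytic subunit (Gclc, chr9:77754535-77794485, + strand) and a modifier subunit (Gclm, chr3:122245557-122270732, + strand). Gclm was higher in all 7 DSS-treated mice than in all 9 water-treated mice. Its rescaled TPM were 27.5, 21.8 and 19.3 in DSS-treated controls against 14.2, 13.3, 15.4 and 9.26 in water-treated controls. In labelled-knockout mice they were 24.7, 27.8, 31.3 and 34.7 after DSS against 16.2, 16.3, 18.8, 4.30 and 13.5 with water. The gap between the groups was narrow, since the lowest DSS-treated mouse had 19.3 and the highest water-treated mouse 18.8. The means differed 1.76-fold in controls and 2.15-fold in labelled-knockout mice. Both listed transcripts of Gclm contributed, ENSMUST00000178826.7 with a median share of 63.5% to 74.8% in the 4 groups. In water-treated labelled-knockout mice its share ran from 17.7% to 82.6% and its lowest level was 0.69 TPM, so the division between the transcripts is uncertain.

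Gclc, the catalytic subunit, was 1.66-fold higher after DSS in controls, with overlap, and 2.20-fold higher in labelled-knockout mice, without overlap. Its rescaled TPM in controls were 36.8, 38.1 and 22.4 after DSS against 18.9, 25.98, 18.96 and 14.4 with water, and DSS control mouse 3 was again the one inside the water-treated range. In labelled-knockout mice they were 31.8, 30.8, 34.6 and 37.2 after DSS against 13.7, 12.7, 18.6, 14.2 and 17.2 with water.

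Nqo1 (chr8:107388225-107403206, - strand), which reduces quinones and is the target most often used as a readout of NRF2, showed a wider gap between the treatments than Gclm and Txnrd1, the other genes that were higher in all DSS-treated mice. Rescaled TPM were 35.7, 34.8 and 29.4 in DSS-treated controls and 20.96, 18.0, 14.5 and 8.05 in water-treated controls, a 2.16-fold difference. In labelled-knockout mice they were 28.8, 38.3, 36.8 and 34.8 after DSS and 13.8, 17.9, 16.9, 14.4 and 13.5 with water, a 2.27-fold difference. Within each mouse Nqo1 stood at percentile 83.2 to 88.1 of all genes after DSS and at 50.7 to 75.5 with water. The log2 difference was 1.14 (SE 0.29) in controls and 1.13 (SE 0.12) in labelled-knockout mice.

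Txnrd1 (chr10:82833951-82897712, + strand), which returns thioredoxin to its reduced state, was abundant in all mice and moderately higher after DSS. Rescaled TPM were 81.6, 87.2 and 72.9 in DSS-treated controls and 62.1, 65.4, 63.9 and 56.1 in water-treated controls. In labelled-knockout mice they were 99.3, 87.2, 94.6 and 96.8 after DSS and 65.6, 65.4, 56.7, 58.0 and 52.3 with water. The difference was 1.302-fold in controls and 1.58-fold in labelled-knockout mice, small beside that of Nqo1 and still without overlap over all 16 mice. Of 3 listed transcripts, ENSMUST00000020484.7 held a median share of 79.3% to 89.0% in the 4 groups, and ENSMUST00000219962.1 ran from 0 to 15.2 TPM between mice of the same group (DSS-treated controls), so the division between the 3 is uncertain. All 3 share the coding length of 1500 bases and the same selenocysteine codon.

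Srxn1 (chr2:152105516-152111376, + strand), which repairs overoxidised peroxiredoxins and is likewise known as a target of NRF2, overlapped between the treatments. Its rescaled TPM ran from 21.5 to 29.6 over the 9 water-treated mice and from 23.3 to 30.3 over the 7 DSS-treated mice. The log2 difference was -0.02 (SE 0.16) in controls and 0.07 (SE 0.07) in labelled-knockout mice, and in controls it was 0.32 as deposited, so its direction depended on the scaling.

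The promoter letters of these genes were searched for the core of the antioxidant response element, TGACNNNGC, and for the related TGAGNNNGC, on both strands. RefSeq promoter sequences (GRCm38.p6, 250 bases before to 50 after each start) were matched for 8 of 10 genes, with 13 promoters among them, and not for Gclc and Hmox1. TGACNNNGC was found in 3 of the 13 promoters (1 each of Gclm, Srxn1 and Txnrd1) and in 12.4% of all 32851 promoters, and TGAGNNNGC in 1 of the 13 (Srxn1) and in 17.6% of all promoters. Either motif was in 3 of the 13, beside 27.8% of all promoters. The matches before the start are shown on the strand of the gene, with the match in capitals:
Gclm, chr3:122245413-122245441, TGACNNNGC on the opposite strand, 134 to 126 bases before the start: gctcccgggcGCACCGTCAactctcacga
Txnrd1, chr10:82859104-82859132, TGACNNNGC on the opposite strand, 92 to 84 bases before the start: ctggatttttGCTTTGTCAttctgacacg
Srxn1, chr2:152105469-152105497, TGAGNNNGC on the gene's strand, 45 to 37 bases before the start: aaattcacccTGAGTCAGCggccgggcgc
Srxn1, chr2:152105356-152105384, TGAGNNNGC on the opposite strand, 158 to 150 bases before the start: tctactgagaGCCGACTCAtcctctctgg
Gclm and Txnrd1 were higher after DSS and Srxn1 overlapped between the treatments. Nqo1, whose log2 difference was above that of these 3 in controls (1.14) and below that of Gclm in labelled-knockout mice (1.13 and 1.17), had no match in its window. Sequence outside the window was not searched, so the lack of a match does not show that a gene lacks the element. Whether matches went with the differences was not tested.

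Hmox1 (chr8:75093621-75100589, + strand), which breaks heme down to biliverdin, iron and carbon monoxide, went the opposite way from Nqo1, Gclc, Gclm and Txnrd1 and had the largest difference of the 10 genes. Rescaled TPM in controls were 70.5, 97.1, 79.5 and 55.0 with water and 10.6, 4.19 and 4.15 after DSS, an 11.9-fold lower mean after DSS. In labelled-knockout mice they were 44.3, 44.8, 48.9, 35.7 and 114 with water and 7.44, 5.53, 8.47 and 6.38 after DSS, 8.27-fold lower. No DSS-treated mouse came near a water-treated mouse, and the percentile within a mouse was 84.4 to 95.0 with water and 35.5 to 61.4 after DSS. Of all genes, 1.75% had a lower log2 difference than Hmox1 in controls and 2.87% in labelled-knockout mice.

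Macrophages, which degrade the hemoglobin of red cells, are a known site of Hmox1 expression, and lower Hmox1 after DSS went with the lower macrophage markers given above. Within the water-treated mice Pearson's r of Hmox1 was 0.26 with the macrophage list and -0.38 with the leukocyte list. The macrophage sums of the water-treated controls were close together, at 2149 to 2288 rescaled TPM. Of the 9 water-treated mice, labelled-knockout mouse 4 had the highest macrophage sum, 2860 rescaled TPM, and the lowest Hmox1, 35.7. Labelled-knockout mouse 5 had the highest Hmox1, 114, at a macrophage sum of 2184. Over the 9 water-treated mice no relation of Hmox1 with the macrophage or the leukocyte list had an unadjusted p under 0.05. Over the 7 DSS-treated mice r was 0.74 with the leukocyte list (exact permutation p = 0.0526, Benjamini-Hochberg adjusted p = 0.433). With the macrophage list it was 0.22 (exact permutation p = 0.625). Without the 2 mice farthest from the median of the list, r was -0.11 with the leukocyte list and 0.81 with the macrophage list. The sum of 5 erythroid markers, hemoglobin genes among them, was 57.5 to 967 with water and 23.6 to 252 after DSS. The part of macrophages in the difference between treatments was not tested.

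**Figure D2:**
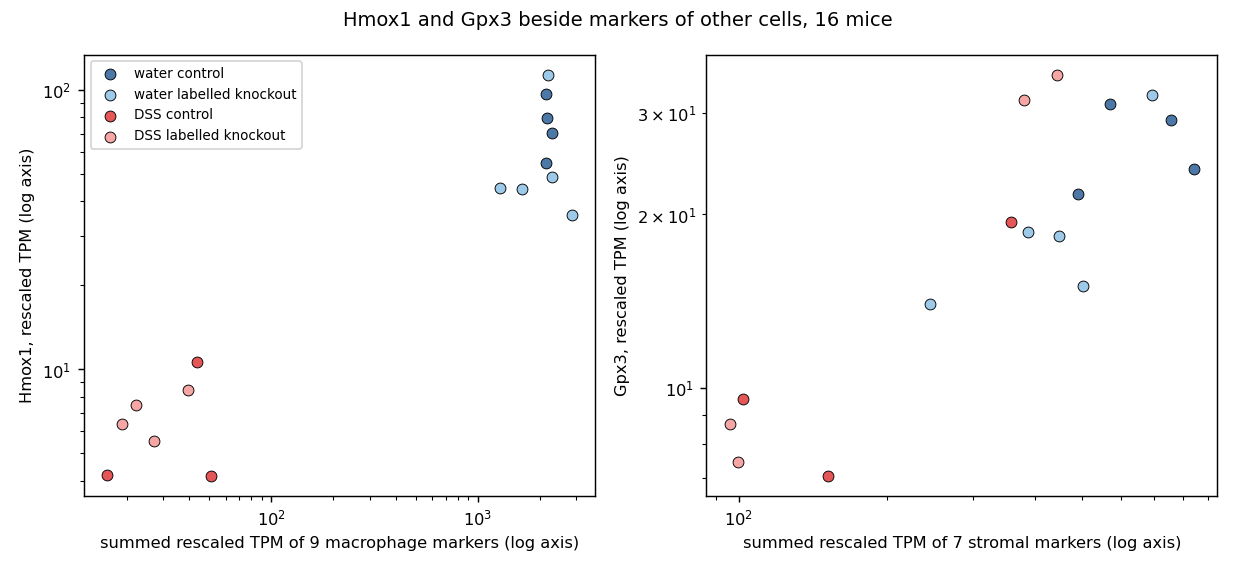
Hmox1 against the summed level of 9 macrophage markers (left) and Gpx3 against that of 7 stromal markers (right), in rescaled TPM on log axes, with 1 point per mouse coloured by group. DSS-treated mice have macrophage sums of 16.01 to 50.8 and water-treated mice of 1283 to 2860, and the 4 DSS-treated mice with the lowest Gpx3 have stromal sums of 95.8 to 152.

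Counted over all 10 genes, 3 were higher in every DSS-treated than in every water-treated control (Nqo1, Gclm and Txnrd1), beside 10.6% of all genes tested, and 2 were lower (Gpx3 and Hmox1), beside 14.2%. In labelled-knockout mice 4 were higher (Nqo1, Gclc, Gclm and Txnrd1), beside 17.4% of all genes, and 2 were lower (Gpx4 and Hmox1), beside 18.1%. Over all 16 mice the groups were apart for Nqo1, Gclm and Txnrd1, beside 4.49% of all genes, and for Hmox1, beside 7.04%. The median log2 difference over the 10 genes was 0.18 in controls and 0.40 in labelled-knockout mice, with 0.01 and -0.0046 over all genes. As deposited, the median of all genes shifted by 0.32 toward DSS, and the counts became 5 higher, beside 30.9% of all genes, and 1 lower, beside 8.25%, in controls, and 7 higher, beside 31.5%, and 1 lower, beside 10.1%, in labelled-knockout mice. Gpx2 and Gclc were added to the higher genes in controls and Gpx1, Gpx2 and Srxn1 in labelled-knockout mice. Gclc then joined the genes that were higher over all 16 mice, beside 18.9% of all genes, with Hmox1 lower, beside 4.16%. By percentile rank Nqo1, Gclm, Txnrd1 and Hmox1 were apart over all 16 mice, beside 9.97% of all genes higher and 5.33% lower. With the epithelial markers set equal in all mice Nqo1 and Hmox1 alone were, beside 3.17% higher and 4.89% lower.

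**Figure D3:**
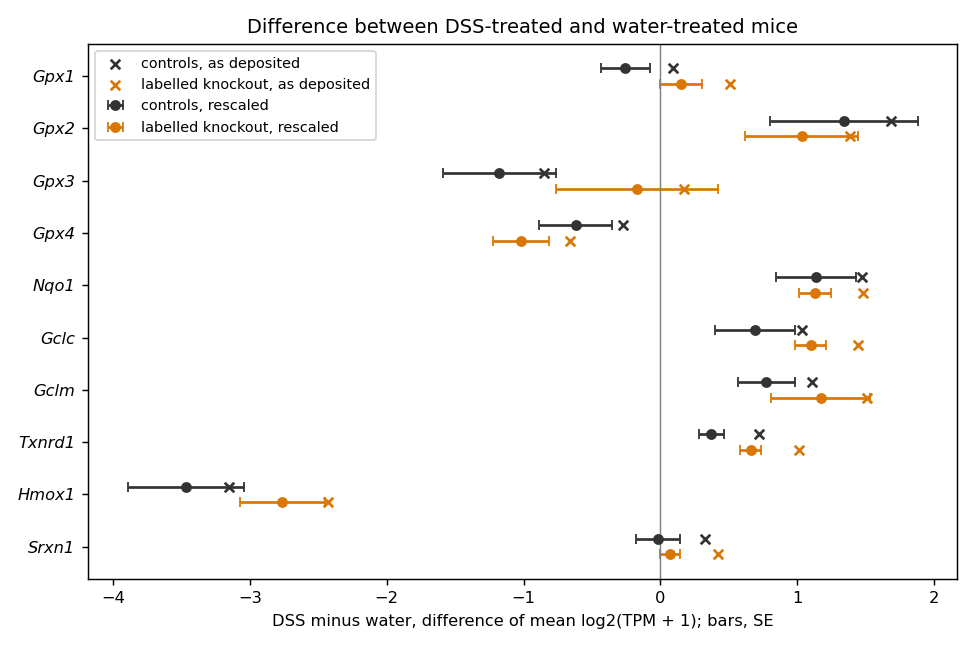
Difference of mean log2(TPM + 1) between DSS-treated and water-treated mice for each gene, in controls and in labelled-knockout mice (circles, rescaled TPM with SE; crosses, as deposited). Nqo1, Gclc, Gclm, Txnrd1 and Gpx2 lie to the right of 0 and Hmox1 and Gpx4 to the left on both scales, while Gpx1 and Srxn1 in controls and Gpx3 in labelled-knockout mice change side.

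Ratios of 2 genes within a mouse do not depend on how a table was scaled. The ratio of Txnrd1 to Srxn1 TPM was 2.07 to 2.61 in the 9 water-treated mice and 2.69 to 4.06 in the 7 DSS-treated mice, without overlap. The ratio of Gpx2 to Gpx1 was 0.0689 to 0.472 in water-treated and 0.483 to 0.842 in DSS-treated controls, and in labelled-knockout mice it was 0.18 to 0.674 against 0.67 to 1.09, with overlap. The ratio of Gclc to Gclm overlapped between treatments, from 0.781 to 3.30 with water and from 1.07 to 1.75 after DSS. Between genotypes none of the 3 ratios passed the test within a treatment (exact permutation test of log2 ratios, two-sided, lowest Benjamini-Hochberg adjusted p = 0.381 over 6 tests).

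The remaining genes of these pathways did not follow a common direction either. Of 50 other pathway genes compared in controls, 8 were higher in every DSS-treated mouse, beside 10.6% of all genes, and 12 were lower, beside 14.2%. In labelled-knockout mice it was 7, beside 17.4%, and 14, beside 18.1%. As deposited, the counts were 17 higher, beside 30.9%, and 6 lower, beside 8.25%, in controls, and 14 higher, beside 31.5%, and 8 lower, beside 10.1%, in labelled-knockout mice, so that the balance between the directions rested on the scaling. Among 13 genes of glutathione supply, 4 were higher in every DSS-treated control, beside 10.6% of all genes, and 1 was lower, beside 14.2%. As deposited, 5 were higher, beside 30.9%, and 1 lower, beside 8.25%. The 4 higher after rescaling included Me1, an enzyme that makes NADPH (1.65 ± 1.13 rescaled TPM with water and 6.21 ± 2.64 after DSS, SD, n = 4 and 3), and Slc7a11, the cystine transporter subunit and a known target of NRF2 (0.581 ± 0.14 and 3.63 ± 2.38). Gsr, which regenerates reduced glutathione, was higher without overlap in both genotypes as well, as were Me1 and Slc7a11. Slc3a2, the partner chain of Slc7a11, had the largest difference in the other direction, from 40.0 ± 17.6 to 7.09 ± 10.3 rescaled TPM in controls, with overlap. In labelled-knockout mice it was lower without overlap (log2 difference -4.44). Rescaled TPM of Slc3a2 after DSS ran from 1.15e-08 to 18.9 in controls and from 0 to 8.08 in labelled-knockout mice. Only principal transcripts are listed, and how reads were divided between transcripts of Slc3a2 was not tested.

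Of 10 genes of selenoprotein synthesis and other selenoproteins, 2 were higher, beside 10.6% of all genes, and 3 were lower, beside 14.2%, without overlap in controls. As deposited, 3 were higher, beside 30.9%, and 1 lower, beside 8.25%. In labelled-knockout mice 1 was higher, beside 17.4%, and 3 were lower, beside 18.1%. As deposited, these became 2 and 2, beside 31.5% and 10.1%. Sepsecs, which makes the selenocysteine on its tRNA, was 3.02 ± 3.67 with water and 8.37 ± 0.779 after DSS in controls. The water-treated controls ran from 1.15e-06 to 7.44, and how reads were divided between transcripts of Sepsecs was not tested. Selenop, the secreted selenium carrier, was 614 ± 61.7 with water and 116 ± 47.1 after DSS. In labelled-knockout mice Sepsecs overlapped between treatments (5.60 ± 1.71 and 6.77 ± 1.97, n = 5 and 4), and Selenop was again lower in every DSS-treated mouse, 90.3 ± 32.0 against 536 ± 143.

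All 4 genes of heme breakdown and iron storage had lower mean rescaled TPM after DSS in both genotypes, and 3 of them (Blvrb, Ftl1 and Fth1) were lower without overlap, beside 14.2% of all genes in controls and 18.1% in labelled-knockout mice. As deposited, Blvrb and Ftl1 stayed without overlap in both genotypes, Fth1 overlapped in controls, and Blvra turned to a log2 difference of 0.09 in labelled-knockout mice. Blvrb, a biliverdin reductase, was 14.3 ± 2.23 rescaled TPM with water and 4.94 ± 3.00 after DSS in controls. The median log2 difference of the list was -0.76 in controls and -1.05 in labelled-knockout mice. These genes are also expressed by macrophages, whose markers were lower after DSS, and the part of those cells was not tested.

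Among 8 regulators of NRF2, none was higher, beside 10.6% of all genes, and 3 were lower, beside 14.2%, without overlap in controls (Sqstm1, Maff and Bach1), of which Maff alone stayed lower without overlap as deposited. Nfe2l2 itself was 94.1 ± 6.65 rescaled TPM with water and 101 ± 22.7 after DSS, and Keap1 was 12.5 ± 1.84 and 12.4 ± 3.10, and both overlapped between the treatments on this scale. As deposited, Nfe2l2 was higher without overlap after DSS in both genotypes, with log2 differences of 0.43 and 0.51. In labelled-knockout mice 1 regulator of the 8 was higher on the rescaled scale (Cul3), beside 17.4% of all genes, and 1 lower (Sqstm1), beside 18.1%. Of 11 genes of the thioredoxin and peroxiredoxin system, 2 were higher (Txn1 and Prdx2), beside 10.6% of all genes, and 1 lower (Txnip), beside 14.2%, in controls, against 1, beside 17.4%, and 4, beside 18.1%, in labelled-knockout mice. As deposited, 5 of the 11 were higher and none lower in controls, beside 30.9% and 8.25%, and 4 were higher and 2 lower in labelled-knockout mice, beside 31.5% and 10.1%. Of 4 genes that remove superoxide and peroxide, 1 was lower in controls (Sod3), beside 14.2% of all genes, and 1 in labelled-knockout mice (Sod1), beside 18.1%. As deposited, 2 were higher and 1 lower in controls, beside 30.9% and 8.25% of all genes. In labelled-knockout mice 1 was then higher and none lower, beside 31.5% and 10.1%.

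**Figure D4:**
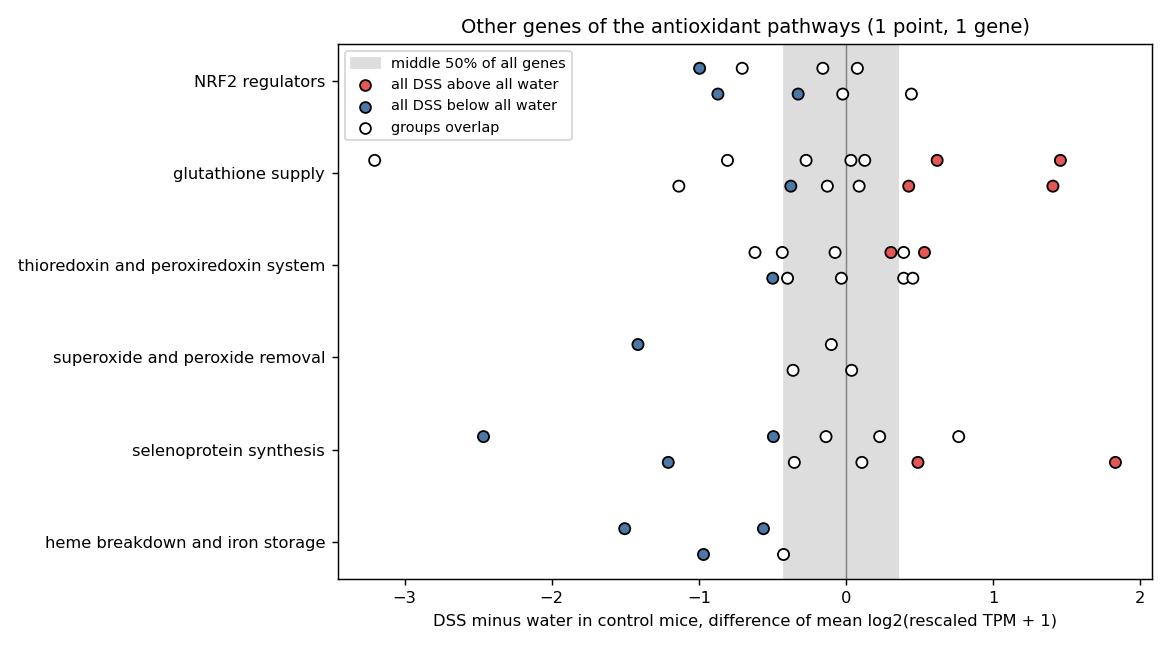
Difference of mean log2(rescaled TPM + 1) between DSS-treated and water-treated controls for 50 other genes of the antioxidant pathways, by list (red, all DSS above all water; blue, all below; white, overlap; grey band, middle 50% of all genes). Most points lie within or near the band, and the 4 genes of heme breakdown and iron storage lie to the left of 0.

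The study asked what loss of TNFR2 does to the epithelium after injury, and the genotypes were compared within each treatment. After DSS, 9 of 10 genes had a higher mean log2(TPM + 1) in labelled-knockout mice, beside 5756 of 10899 genes tested. None of the 10 was called by limma (Benjamini-Hochberg adjusted p under 0.05 over 10899 genes, where 1 gene or 0.00918% was called). At an unadjusted p under 0.05 there were 3 of the 10 (Gpx2, Gclm and Txnrd1), beside 2.65% of all genes. The median log2 fold change was 0.24 over the 10 genes and 0.02 over all genes.

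Gpx2 had the largest limma fold change on log2(TPM + 1), with deposited TPM of 47.5, 59.9 and 65.6 in controls and 105, 80.3, 123 and 77.5 in labelled-knockout mice. The groups did not overlap, and the mean was 1.67-fold higher (limma log2 fold change 0.72, SE 0.20, unadjusted p = 0.00715, adjusted p = 1.00). Gpx1 and Txnrd1 also did not overlap, at 71.1 to 103.6 against 103.9 to 120 TPM and at 90.4 to 98.8 against 104 to 118 TPM. After rescaling, Txnrd1 overlapped, since the highest control and the lowest labelled-knockout mouse were both at 87.2. As deposited, that makes 3 of 10 genes with all labelled-knockout mice above all controls, beside 2.13% of all genes, and none with all below, beside 1.55%. With 3 against 4 mice the exact two-sided permutation test cannot give a p below 0.0571, which these 3 genes reached. Gpx4 was the gene with a lower mean in labelled-knockout mice (log2 fold change -0.31, SE 0.24, adjusted p = 1.00 by limma), with overlap. Summed leukocyte markers in these labelled-knockout mice were 23.1 to 35.4 against 21.8 to 71.2 rescaled TPM in controls, and summed goblet cell markers were 968 to 1540 against 1095 to 6013. Crypt progenitor markers were 193 to 250 against 143 to 241.

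In the water-treated mice, 4 of 10 genes had a higher mean log2(TPM + 1) in labelled-knockout mice and 6 a lower one, beside 5542 and 5504 of 11046 genes tested. None of the 10 was called by limma (1 of 11046 genes, 0.00905%, was called) and none had an unadjusted p under 0.05, beside 5.28% of all genes. Gpx2 again had the largest limma fold change, with a 1.93-fold higher mean (limma log2 fold change 1.01, SE 0.56, adjusted p = 0.864). Its groups overlapped, with 6.84 to 41.2 TPM in controls and 14.4 to 68.7 TPM in labelled-knockout mice (exact permutation p = 0.143, two-sided). Hmox1 had a mean of 53.0 TPM in labelled-knockout mice against 69.3 TPM in controls (log2 fold change -0.48, SE 0.32, adjusted p = 0.864 by limma). For all 10 genes the genotypes overlapped, where 1.55% of all genes did not. Whether the genotype difference itself differed between treatments was not tested, because the tables were normalized separately.

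**Figure D5:**
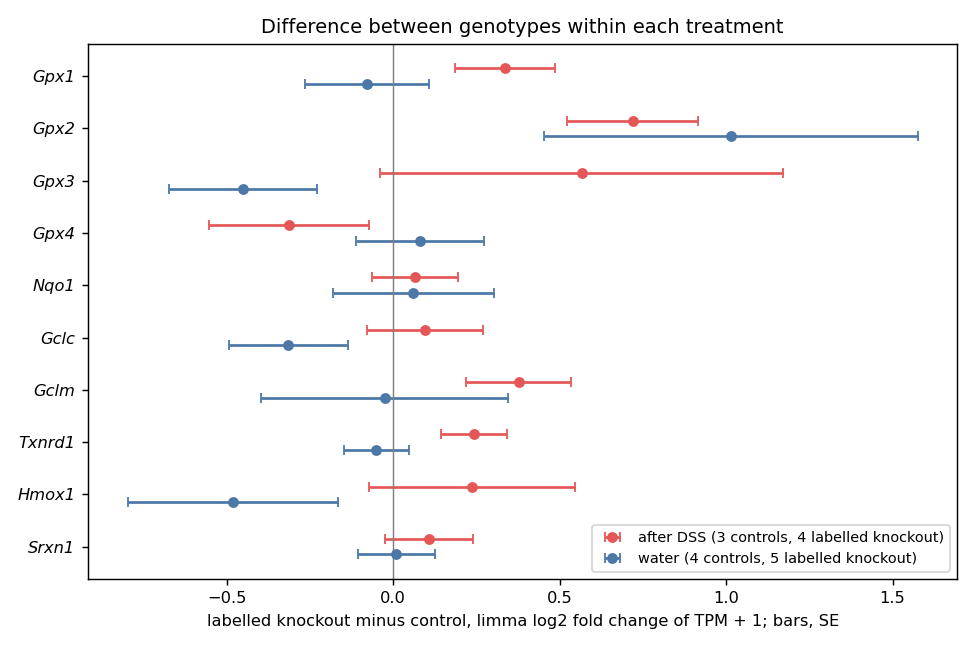
Log2 fold change of labelled-knockout over control mice from limma, with SE, for each gene after DSS and in water-treated mice. Gpx2 lies at 0.72 after DSS and 1.01 with water, the other 9 genes lie between -0.48 and 0.57, and none was called.

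The 50 other pathway genes tested after DSS and the 49 tested in water-treated mice held no called gene either. At an unadjusted p under 0.05 there was none after DSS, and 3 in water-treated mice (Eefsec higher, Maff and Mafk lower in labelled-knockout mice), beside the same 2.65% and 5.28% of all genes.

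Males of cage a and females of cage b were compared in the water-treated mice with genotype in the fit. None of the 10 genes was called (4 of 11046 genes, 0.0362%, were), and none had an unadjusted p under 0.05, beside 6.83% of all genes. The lowest p was that of Txnrd1 (log2 fold change 0.16 higher in males, SE 0.09, adjusted p = 0.776 by limma). Sex and cage cannot be told apart here.

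Each gene was set against the leukocyte and the macrophage marker lists within each treatment, 40 relations in all. None had a Benjamini-Hochberg adjusted p under 0.05, and 3 had an unadjusted p under 0.05 for Pearson's r, as did 3 for Spearman's rho. Gpx3 was higher where the macrophage list was higher over the 9 water-treated mice (r = 0.82, exact permutation p = 0.00522, adjusted p = 0.136, rho = 0.73, p = 0.0311, adjusted p = 0.38), and r was 0.73 without the 2 mice farthest from the median. Gclm was lower where the leukocyte list was higher in the same mice (r = -0.86, exact permutation p = 0.00678, adjusted p = 0.136, rho = -0.65, p = 0.0666, adjusted p = 0.38), with r = -0.61 without the 2 farthest mice. Srxn1 was higher where the leukocyte list was higher over the 7 DSS-treated mice (r = 0.77, exact permutation p = 0.0276, adjusted p = 0.368, rho = 0.82, p = 0.0341, adjusted p = 0.38), with r = 0.78 without the 2 farthest mice.

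Variation between mice of the same group was compared with that of 7279 genes averaging 5 TPM or more, as Pearson's r of the deviations from the group means over 16 mice. Between pairs of the 10 genes the highest r was 0.54, for Gclc and Hmox1, and the lowest was -0.50, for Gpx4 and Gclm. The nearest genes given next were each picked as the highest of 7279, far more than the 10 genes. Their r therefore cannot be set against the r of those pairs. The r that such a pick reaches by chance over 16 mice was not tested. Gpx3 was closest to Bmp5 (r = 0.95) and Pdgfra (r = 0.94), the latter a member of the stromal marker list. Nqo1 was closest to Dcbld1 (0.92) and 1110008L16Rik (0.91), Gclm to Pank2 (0.93) and Mlst8 (0.90), and Hmox1 to Zfand2a (0.91) and Mat2a (0.85). Among the nearest to Gpx1 were Guk1 (0.86) and Dpm2 (0.84), to Gpx2 Gar1 (0.84) and Ankrd27 (0.84), and to Gpx4 Arf6 (0.87). Among the nearest to Gclc were Slc18b1 (0.87) and Far1 (0.86), to Txnrd1 Pwp1 (0.88) and Tceanc2 (0.86), and to Srxn1 Riok3 (0.82). These are descriptions over mice that share library preparation and table scaling, and no p is given.

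In order of mean rescaled TPM, Gpx1, Hmox1, Gpx4 and Txnrd1 led in water-treated controls, at 61.9 or more, and the other 6 genes were at or below 26.5. The only neighbours in that order with the same rank in all 4 mice were Txnrd1 and Gpx3, so the order within the upper 4 and within the lower 6 was not settled. In DSS-treated controls the order ran from Txnrd1 (80.5) and Gpx1 (77.2) through Gpx2 (49.0) and Gpx4 (45.7) to Gclm (22.9), Gpx3 (12.0) and Hmox1 (6.32). There, Gpx1 was above Gpx2, Srxn1 above Gclm, Gclm above Gpx3 and Gpx3 above Hmox1 in all 3 mice, and Txnrd1 above Gpx1 in 1 of 3. The sum over the 10 genes overlapped between the treatments, at 352 to 448 rescaled TPM in water-treated and 368 to 500 in DSS-treated mice.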

How the data were processed

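Libraries of EpCAM+ cells from 16 mice were quantified by the authors with kallisto and tested with sleuth on mm10 (submitters' notes, no versions given). They deposited 1 table per treatment of TPM per transcript, scaled between the mice of a table, with only APPRIS principal transcripts listed. The tables also hold the authors' p-values, q-values and log2 ratios of genotype, which were not used. After 385 repeated lines were dropped, TPM was summed per gene symbol.

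Groups followed the sample labels. Genotypes were compared within a table by limma 3.58.1 (R 4.3.3) on log2(TPM + 1) with a variance trend, for genes averaging 1 TPM or more, with Benjamini-Hochberg adjustment, and by exact permutation. The fit was tested on simulated data. Fold changes on log2(TPM + 1) understate those of low genes. TPM keeps no depth, so precision rests on the number of mice. P-values of limma set a difference of means against the spread between these mice, with each gene's variance drawn toward the trend over all genes. Exact p-values place the observed value among all relabellings or pairings of the mice. Cage was not part of the main genotype tests. Members and lists were chosen with earlier results of these data known. Named beside the 10 genes were pathway genes called or with the 3 largest differences in each direction in controls, the 2 nearest genes of each member (1 each for Gpx4 and Srxn1 is not reported here) and Tnfrsf1b; other pathway genes were named after their values were seen. Alternatives were other pseudocounts, filters, scalings, covariates and each mouse left out. Python 3.11.15, pandas 2.3.3, scipy 1.17.1 and matplotlib 3.10.9 were used.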

Additional observations from a re-analysis of the deposited data

Results flagged for a closer look

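Among 30 groups of 4 or 5 mice, with chance giving about 1 in 20, a single mouse lay far from the others by Dixon's criterion in 2, both among the water-treated labelled-knockout mice. Gpx3 was 29.1 TPM in mouse 4 against 12.8 to 17.2 TPM in the other 4, and this mouse also had the highest sums of macrophage markers (2860 rescaled TPM) and leukocyte markers (632) of the 9 water-treated mice. Its sum of stromal markers was 693 rescaled TPM, against 245 to 502 in the other 4 and 490 to 844 in the water-treated controls. Hmox1 was 104 TPM in mouse 5 against 32.3 to 45.9 TPM in the other 4, at macrophage and leukocyte sums (2184 and 410) within the range of the others. The part of other cells in these values was not tested.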

How the results depend on the processing

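No member was called in any genotype or cage comparison under any alternative run. The number of genes called over the whole table moved from 1 to 0 after DSS with a pseudocount of 0.1, with all genes above 0 or with the replicate block, and in uninjured colon from 1 to 0 with a pseudocount of 0.1 or the replicate block and to 4 with all genes above 0. Leaving out each mouse in turn gave 0 to 3 genes after DSS, 1 to 2 in uninjured colon and 3 to 7 between the cages. Replicate numbers did not pair the mice (correlations of deviations from -0.20 to 0.09), and the replicate block turned the uninjured log2 fold change of Gpx1 to 0.035. With cage as a covariate that of Gclm was 0.024. With each mouse left out, fold changes near 0 took either sign: Gclc from -0.107 to 0.204 after DSS, Gpx1 from -0.174 to 0.035, Gpx4 from -0.0657 to 0.157, Nqo1 from -0.201 to 0.231, Gclm from -0.169 to 0.314 and Srxn1 from -0.0761 to 0.0718 in uninjured colon, and Hmox1 from -0.372 to 0.0691 and Srxn1 from -0.00731 to 0.151 between the cages.

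Between treatments, the members with all DSS above all water went from 3 to 5 in controls and from 4 to 7 in labelled-knockout mice as deposited, and those below from 2 to 1 in each. Leaving out each mouse gave 3 to 4 above and 2 to 4 below in controls, 4 below without water-treated control mouse 4 (Gpx1 and Gpx4 added), and 4 to 5 above in labelled-knockout mice with 2 below throughout. In controls the log2 difference of Gpx1 turned to 0.0949 as deposited and 0.0163 with equal epithelial markers, and that of Srxn1 to 0.323, 0.248 and, in female mice only, 0.0102. Their mean percentiles were higher by 0.06002 and 1.40 points, their median percentiles by 0.609 and -0.52. In labelled-knockout mice Gpx3 turned to 0.17 and 0.12. With each mouse left out, Srxn1 in controls ran from -0.14 to 0.045 and Gpx3 in labelled-knockout mice from -0.512 to 0.183. The cause was not tested. The filter on low values leaves the members' levels as they are, and no value without it was taken between treatments.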
